A study of Mus musculus with 4 samples.

Results

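The genes described here encode 10 S100 proteins measured in tumour keratinocytes: S100a3, S100a4, S100a6, S100a8, S100a9, S100a10, S100a11, S100a13, S100a14 and S100a16. They were chosen by name, as S100 genes that epithelial cells can express. They are 10 of the 31729 genes with an entry in the deposited transcript tables, and all 10 were among the 11969 genes that passed the filter on low values. The libraries were made from stem cells of primary squamous cell carcinomas that arose in mouse skin epidermis, sorted by integrin α6 and CD44 after lineage-positive cells had been removed. The comparison was between cells in which a fluorescent (mCherry) reporter of transforming growth factor-β (TGF-β) signalling was on and cells in which it was off.

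The groups were 2 reporter positive libraries and 2 reporter negative libraries, 1 of each from each of 2 numbered experiments. All 4 libraries carried the same background: the strain label was C57BL/6 X FBV, and the genotype label named a TetO-Hras transgene with a construct, LV-rtTA3-TGF-beta reporter, that holds the rtTA3 activator and the reporter. Animal age, the number of animals or tumours pooled and the promoter that drives rtTA3 were not given in the sources used here. Because the labels do not say that the experiments used separate animals, the p-values cover no more than the spread among the 4 libraries, which may be technical.

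S100 proteins are small calcium-binding proteins that usually pair with themselves or with a relative and expose a binding surface when calcium is bound. Inside cells they bind annexins, cytoskeletal proteins and enzymes, and some are exported and act on receptors of neighbouring cells. Most of the genes lie in clusters beside the epidermal differentiation complex, the stretch of genes for cornified envelope proteins. In epidermis S100a8 and S100a9 are low at rest and are known to be induced in wounds, inflammation and tumours.

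The values are FPKM, fragments scaled to transcript length and to the number of mapped fragments, which the authors estimated per transcript on mouse build mm9; they are levels per transcript length and were summed here per gene. Differences are on the log2(FPKM + 1) scale, positive minus negative, and were tested with limma, a moderated linear model fitted over all 11969 genes. A gene was called at a Benjamini-Hochberg adjusted p under 0.05, adjusted over all 11969 genes. All gene coordinates are mm9. For member transcripts over 100 FPKM the authors' confidence intervals reached from 0.916% to 7.21% of the FPKM to either side of their centre, which cover counting error alone. Of 46 member transcript values above 0, 7 lay outside their own interval, and those that bear on a result are named beside it.

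Of the S100 genes, 1 of 10 rose, S100a16, and 0 fell, against 5.07% of all genes tested that were called in either direction (2.55% higher and 2.52% lower). At an unadjusted p under 0.05 by limma, 5 of 10 passed, against 25.6% of all genes. S100a8 and S100a9 had the largest differences, 2.62 ± 0.64 and 2.89 ± 0.60 (SE), without passing the threshold. With the experiment number as a block, S100a9 and S100a16 rose and S100a13 fell, 3 of 10, against 10.4% of all genes (4.09% higher and 6.36% lower). The libraries did not overlap for 6 of 10 genes: S100a8, S100a9, S100a14 and S100a16 were higher in both positive libraries than in either negative library, and S100a4 and S100a13 were lower. Over all tested genes, 57.9% had groups that did not overlap, 15.3% with the positive libraries higher and 42.6% with them lower. The median difference was 0.11 over the 10 members and -0.18 over all genes tested. Median-of-ratios scaling moved the median of all genes to 0.01, and with it the S100a4 difference was -0.07 and the S100a10 difference 0.0013.

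**Figure D1:**
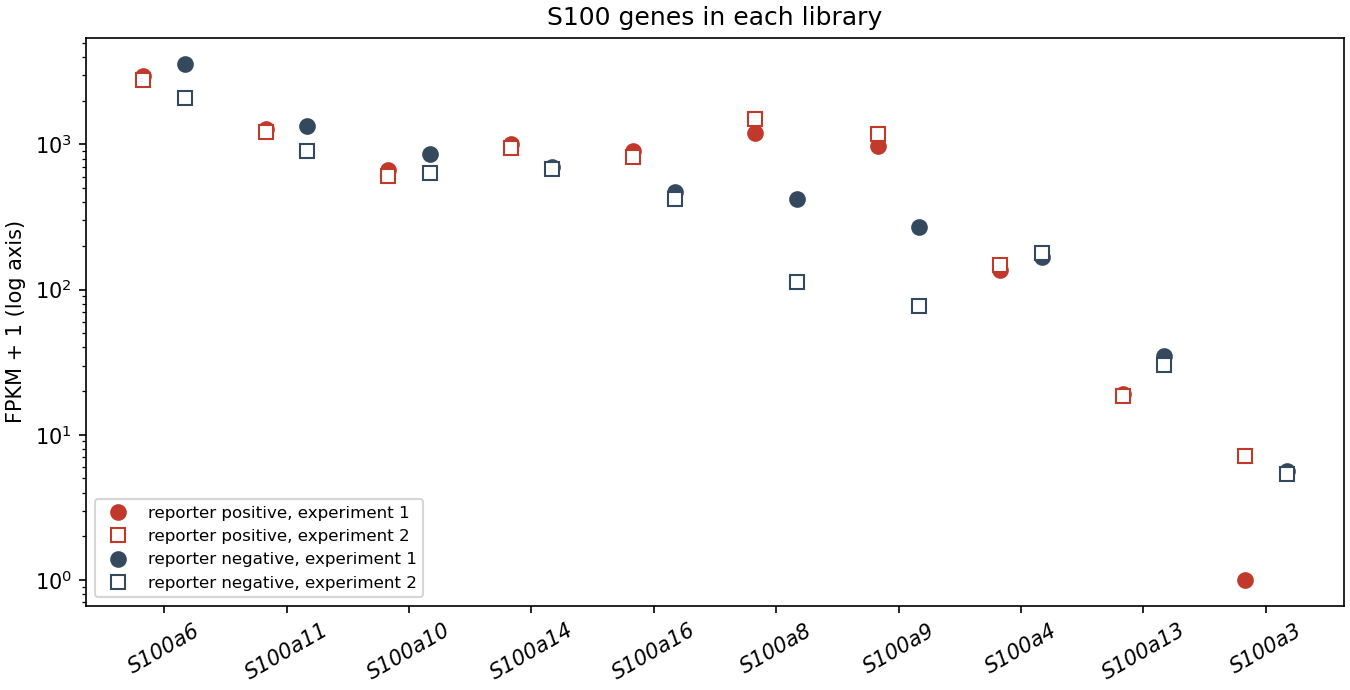
FPKM of each S100 gene in each library, on a log axis, with reporter positive libraries left of reporter negative libraries and experiments marked by symbol; S100a3 was listed at 0 in the positive library of experiment 1. S100a8, S100a9, S100a14 and S100a16 were higher in both positive libraries, S100a4 and S100a13 were lower, and the groups overlapped for S100a3, S100a6, S100a10 and S100a11.

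**Figure D2:**
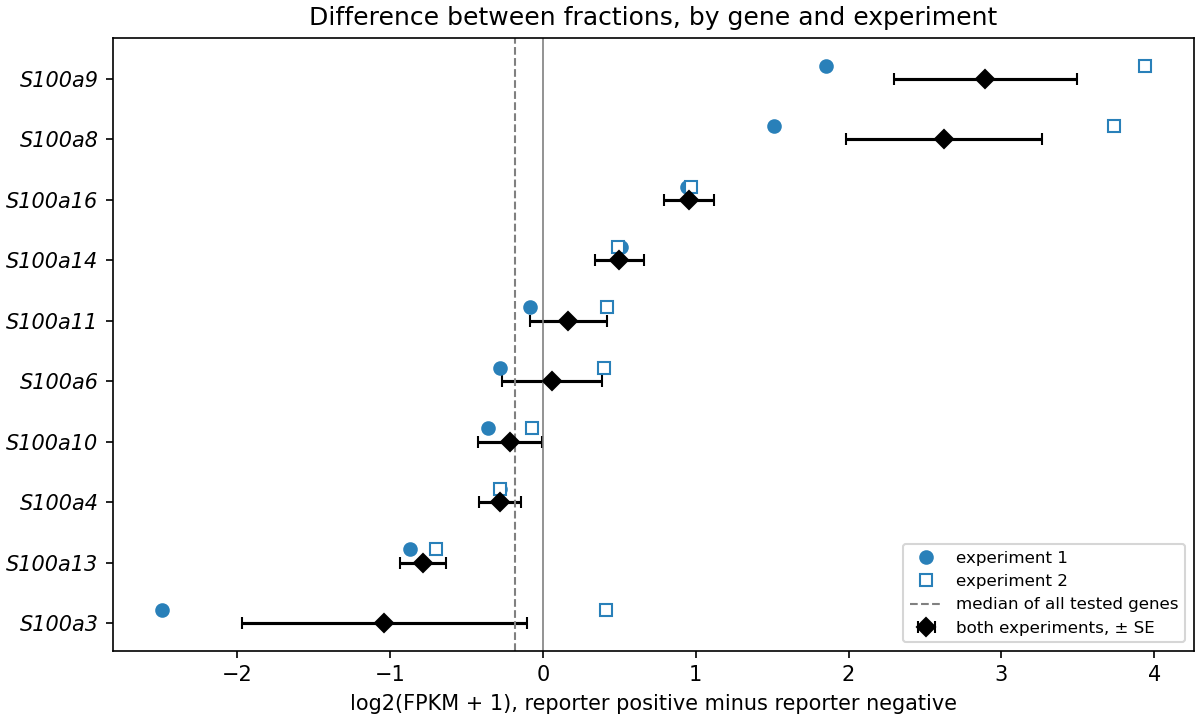
The log2(FPKM + 1) difference of each S100 gene, reporter positive minus reporter negative, with bars for the standard error of the fit and symbols for the difference within each experiment. S100a8 and S100a9 have the largest differences and differ widely between experiments, while S100a16 has nearly the same difference in both; the dashed line is the median of all genes tested, -0.18.

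The secreted pair S100a8 and S100a9 encode the subunits of calprotectin, a complex that binds calcium and transition metals and is also abundant in neutrophils. S100a8 (ENSMUSG00000056054, chr3:90472993-90473956, plus strand) and S100a9 (ENSMUSG00000056071, chr3:90496554-90499643, minus strand) are neighbours on opposite strands, transcribed towards each other. The sequences just upstream of their starts, and of S100a16, are shown because these are the members with the largest or the called differences. They are the 250 bases before the start in RefSeq, build GRCm38.p6 (S100a8 chr3:90668821-90669070, plus strand; S100a9 chr3:90695722-90695971, minus strand; S100a16, the entry listed first, chr3:90537004-90537253, plus strand). Letters are 5′ to 3′ in the direction of the gene, and capitals mark every match, on either strand, to 4 motifs. These were TATAAA, the TATA box, and the AP-1 motif, spelled TGANTCA. The Smad motif was spelled CAGAC. The C/EBP motif was spelled TTNNGNAA. Overlap between matches was allowed.
S100a8: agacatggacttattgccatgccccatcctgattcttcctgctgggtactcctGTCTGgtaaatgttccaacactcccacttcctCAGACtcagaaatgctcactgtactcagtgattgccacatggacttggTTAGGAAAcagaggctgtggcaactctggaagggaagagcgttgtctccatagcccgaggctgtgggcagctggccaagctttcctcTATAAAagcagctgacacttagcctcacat
S100a9: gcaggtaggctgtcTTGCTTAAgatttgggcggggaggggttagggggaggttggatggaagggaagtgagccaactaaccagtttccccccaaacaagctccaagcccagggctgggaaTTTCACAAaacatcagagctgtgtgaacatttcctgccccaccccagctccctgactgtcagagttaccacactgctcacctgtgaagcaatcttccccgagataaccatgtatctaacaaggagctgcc
S100a16: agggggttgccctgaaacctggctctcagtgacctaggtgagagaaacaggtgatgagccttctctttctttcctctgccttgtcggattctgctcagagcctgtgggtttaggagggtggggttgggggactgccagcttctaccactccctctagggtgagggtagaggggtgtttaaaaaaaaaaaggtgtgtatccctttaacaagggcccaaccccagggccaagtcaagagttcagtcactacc
The S100a8 stretch held the TATA box 30 bases before the start, the Smad motif at 2 places and the C/EBP motif at 1. The S100a9 stretch held the C/EBP motif at 2 places and no other motif searched, while a TATA box match lay within the 50 bases after its RefSeq start, which are not shown. The S100a16 stretch printed held no match, and that of the other RefSeq entry of S100a16 (chr3:90540896-90541145, plus strand) held the AP-1 motif at 1 place and the Smad motif at 2. Over 32851 RefSeq promoter entries, 12.4% held the TATA box, 6.75% the AP-1 motif, 42.2% the Smad motif and 36.8% the C/EBP motif in the same 250 bases. These matches describe letters and not binding. RefSeq entries were found for 8 of the 10 genes; S100a10 and S100a14 had no entry in the table used.

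S100a8 had 1203 and 1493 FPKM in the positive libraries of experiments 1 and 2, against 422 and 111 FPKM in the negative libraries. Both positive libraries were higher than both negative ones, and the low negative library was that of experiment 2. The positive libraries averaged 1348 ± 205 FPKM and the negative libraries 267 ± 219.9 FPKM (SD, n = 2 each). The difference was 2.62 ± 0.64 on the log2 scale, with an adjusted p of 0.0901 by limma, and 0.0527 with the experiment block. Within experiment 1 S100a8 was 2.85-fold higher in positive cells, and within experiment 2 it was 13.4-fold higher. In the positive library of experiment 1 and the negative library of experiment 2 the deposited FPKM lay outside its own interval (676 to 714 and 59.2 to 72.8 FPKM). With interval centres in place of FPKM for all genes, the difference was 2.60 with an adjusted p of 0.177 by limma.

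S100a9 followed the same pattern at a slightly lower level. It had 972 and 1185 FPKM in the positive libraries, against 268 and 76.5 FPKM in the negative libraries. Again the groups did not overlap, and the negative library of experiment 2 was the lowest. The means were 1079 ± 151 FPKM in positive and 172 ± 136 FPKM in negative libraries (SD, n = 2 each), and the difference was 2.89 ± 0.60 with an adjusted p of 0.0674 by limma. With the experiment block the adjusted p was 0.0391, past the threshold. S100a9 was 3.62-fold higher within experiment 1 and 15.5-fold higher within experiment 2. Without the negative library of experiment 2 the limma differences were 1.67 for S100a8 and 2.0 for S100a9, with adjusted p of 0.112 and 0.0991. Without the negative library of experiment 1 they were 3.58 and 3.79, with adjusted p of 0.0438 and 0.0402.

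S100a9 was listed with a second transcript that had values in the positive libraries and none in the negative ones. ENSMUST00000069960 had 836 and 992 FPKM in the positive libraries, against 268 and 76.5 FPKM in the negative libraries. ENSMUST00000117167, whose first exon is 10 bases longer and whose second exon is 3 bases shorter, had 136 and 194 FPKM in the positive libraries and was listed at 0 in both negative libraries. The files' upper interval bounds for those zeros were 0.182 and 0.153 FPKM. The forms share nearly all of their exonic bases, and the split between them was not tested.

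The ratio of S100a8 to S100a9 depended on which deposited value was used. By FPKM, S100a8 had 1.24 and 1.26 times the FPKM of S100a9 in the positive libraries, against 1.57 and 1.45 times in the negative libraries. By interval centres the ratio was 0.708 and 1.26 in positive libraries, against 1.57 and 0.863 in negative libraries, with no common direction over the experiments. By FPKM the pair together made up 23.8% and 29.1% of the FPKM of the 10 genes in positive libraries, against 8.76% and 3.65% in negative libraries. By the distance between centred log2(FPKM + 1) values over the 4 libraries, including the S100a8 values that lay outside their intervals, S100a8 was the nearest of 8519 genes to S100a9 (distance 0.285 log2 units). The next were Degs2, a sphingolipid desaturase and hydroxylase gene (0.288), and Crct1, a gene of the epidermal differentiation complex (0.332). Degs2 had 31.6 and 30.2 FPKM in positive libraries, against 6.15 and 1.35 FPKM in negative libraries. Crct1 had 26.4 and 32.4 FPKM in positive libraries, against 5.86 and 1.71 FPKM in negative libraries. With 4 libraries this likeness is a description.

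Since neutrophils also hold S100a8 and S100a9, markers of neutrophils and monocytes were read beside them. Of 18 markers, 12 were under 1 FPKM in every library, and Ly6c2, Elane (neutrophil elastase) and Camp (cathelicidin) were listed at 0 in all 4. Of the 6 tested, 0 passed the threshold by limma. Their summed level was 19.9 and 31.8 FPKM in positive libraries, against 14.8 and 14.4 FPKM in negative libraries. Ptprc, the pan-leukocyte gene for CD45, had 0.19 and 0.362 FPKM in positive libraries, against 0.15 and 0.204 FPKM in negative libraries. Ly6g, a neutrophil surface marker, had 0.171 and 0 FPKM in positive libraries, against 0.238 and 0.322 FPKM in negative libraries. Csf3r and Ltf, named after their values were seen, went the other way at similarly low levels. Csf3r had 0.281 and 0.345 FPKM in positive libraries, against 0.219 and 0.263 FPKM in negative libraries. Ltf had 0.164 and 0.0589 FPKM, against 0.0371 and 0.0207 FPKM. None of these genes was tested, since all were under the 1 FPKM filter. Other markers were above these levels. Of the 6 tested, 3 were higher in both positive libraries, against 15.3% of all genes tested. Cd14, a monocyte receptor gene, had 6.98 and 7.93 FPKM in positive libraries, against 4.15 and 3.5 FPKM in negative libraries (adjusted p of 0.0863 by limma). Cd68, a macrophage lysosome gene, had 4.12 and 4.69 FPKM in positive libraries, against 2.88 and 2.44 FPKM in negative libraries (adjusted p of 0.166). Lyz2, a lysozyme gene of myeloid cells named after its values were seen, overlapped between the groups, with 2.38 and 6.58 FPKM in positive libraries, against 2.25 and 3.93 FPKM in negative libraries. Cxcr2, a chemokine receptor of neutrophils that keratinocytes can also express, had 3.31 and 4.0 FPKM in positive libraries, against 1.38 and 0.934 FPKM in negative libraries (adjusted p of 0.0611 by limma). The part of these markers in the S100a8 and S100a9 values was not tested. In bulk RNA, fewer cells of a type and less RNA per cell cannot be told apart.

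S100a16 was the member that passed the test. It encodes a widely expressed S100 protein, and S100a14, its neighbour, encodes a protein of epithelia that can bind it. S100a16 (ENSMUSG00000074457, chr3:90341176-90347073, plus strand) had 899.9 and 824 FPKM in the positive libraries, against 468 and 421 FPKM in the negative libraries. Every positive value was well above every negative one. The means were 862 ± 53.6 FPKM and 444 ± 33.1 FPKM (SD, n = 2 each), and S100a16 rose by 0.96 ± 0.16 on the log2 scale (adjusted p of 0.0483 by limma, 0.0170 with the experiment block). The rise was 1.92-fold in experiment 1 and 1.96-fold in experiment 2. The adjusted p was just under the threshold: over 17 alternatives it ranged from 0.000154 to 0.315 and passed in 6, while the difference stayed between 0.88 and 1.17.

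S100a14 (ENSMUSG00000042306, chr3:90330778-90332755, plus strand) was at a similar level and differed less. It had 1001 and 951 FPKM in the positive libraries, against 704 and 675 FPKM in the negative libraries. The groups did not overlap, and the differences within experiments were 0.51 and 0.49. The difference was 0.50 ± 0.16, with an adjusted p of 0.146 by limma and 0.0521 with the experiment block. The level of S100a16 relative to S100a14 was 0.899 and 0.867 in positive libraries, against 0.665 and 0.624 in negative libraries. The transcript that carries S100a14 was named by its exon overlap with GENCODE, since its identifier was not in that annotation.

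S100a6 was the most abundant of the 10 in every library. It encodes calcyclin, which binds the ubiquitin ligase adaptor encoded by Cacybp. S100a6 (ENSMUSG00000001025, chr3:90416816-90418336, plus strand) had 2968 and 2772 FPKM in the positive libraries, against 3608 and 2103 FPKM in the negative libraries. The negative libraries were the highest and the lowest of the 4, so the groups overlapped. The difference was 0.06 ± 0.33 (adjusted p of 0.931 by limma), with -0.28 in experiment 1 and 0.40 in experiment 2. In the negative library of experiment 1, 1454 of the 3608 FPKM stood on a form assembled from the reads, in which an exon at 90417223-90417304 replaced the annotated first exon. With annotated transcripts alone the S100a6 difference was 0.43 (adjusted p of 0.343 by limma). In the negative library of experiment 2 the deposited 2103 FPKM lay above its own interval of 1621 to 1659 FPKM.

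S100a4 encodes metastasin, a partner of non-muscle myosin that is also abundant in fibroblasts. S100a4 (ENSMUSG00000001020, chr3:90407692-90409966, plus strand) had 136 and 147 FPKM in the positive libraries, against 166 and 179 FPKM in the negative libraries. Both positive libraries were lower than both negative ones, by 0.28 on the log2 scale in each experiment. The difference was -0.28 ± 0.14, with an adjusted p of 0.271 by limma, and lay close to the median of all genes tested. The fibroblast markers had a summed level of 18.2 and 40.7 FPKM in positive libraries, against 132 and 265 FPKM in negative libraries. Of the 7 tested, 4 were lower in both positive libraries, against 42.6% of all genes tested. Of the 10 fibroblast markers 7 were tested, and 2 fell by limma: Postn (periostin), with 4.78 and 11 FPKM in positive libraries against 89.7 and 191 FPKM in negative libraries (adjusted p of 0.0283), and Thy1 (CD90), with 0.521 and 1.80 FPKM against 15.2 and 32.5 FPKM (adjusted p of 0.0323). Over all genes tested, 2.52% fell. Postn and Thy1 carried most of the sum in negative libraries (104.9 and 223.4 FPKM) but not in positive libraries (5.3 and 12.8 FPKM). The other 8 markers summed to 12.9 and 27.9 FPKM in positive libraries, against 27.4 and 42.1 FPKM in negative libraries. None of the 10 was listed at 0 in all libraries. The part of these markers in the S100a4 values was not tested.

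S100a10 and S100a11 encode the annexin-binding members: S100a10 (p11) forms a complex with annexin A2, and S100a11 binds annexin A1. S100a11 (ENSMUSG00000027907, chr3:93324410-93330209, plus strand) had 1271 and 1209 FPKM in the positive libraries, against 1347 and 904 FPKM in the negative libraries. As for S100a6, the negative libraries were the highest and the lowest. The difference was 0.17 ± 0.25 (adjusted p of 0.721 by limma), with -0.08 in experiment 1 and 0.42 in experiment 2. The files marked the S100a11 transcript as not fully covered by reads in any library. S100a11 has a near-identical pseudogene, S100a11-ps, listed at 0.195 FPKM or less, and how reads were divided between them is uncertain. S100a10 (ENSMUSG00000041959, chr3:93359002-93368565, plus strand) had 670.5 and 609 FPKM in the positive libraries, against 859.7 and 639 FPKM in the negative libraries. Its groups overlapped, and its difference was -0.21 ± 0.21 (adjusted p of 0.570 by limma), or 0.0013 with median-of-ratios scaling.

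S100a13 encodes a protein that takes part in the export of growth factors and interleukins that lack a signal peptide. S100a13 (ENSMUSG00000042312, chr3:90318357-90328503, plus strand) had 18.2 and 17.6 FPKM in the positive libraries, against 34.0 and 29.2 FPKM in the negative libraries. Both positive values lay well below both negative ones. The means were 17.9 ± 0.469 FPKM and 31.6 ± 3.42 FPKM (SD, n = 2 each). The difference was -0.78 ± 0.15, with an adjusted p of 0.0598 by limma, and 0.0387 with the experiment block, past the threshold. Within experiments it was -0.87 and -0.70.

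S100a3, best known from the hair cuticle, was the lowest member. S100a3 (ENSMUSG00000001021, chr3:90404137-90406624, plus strand) was listed at 0 and 6.19 FPKM in the positive libraries, against 4.61 and 4.39 FPKM in the negative libraries. The positive libraries were the lowest and the highest of the 4. The difference was -1.04 ± 0.93 (adjusted p of 0.533 by limma), and it was 0.39 without the positive library that listed it at 0. In that library the file had joined S100a3 and its neighbour S100a4 into 1 locus. The file's upper interval bound for the zero was 0.0789 FPKM. Whether the zero is a failed estimate was not tested. The genes whose values lay nearest to S100a3 over the 4 libraries were Tmem251, Gm20604 and Ubxn8 (distances 0.502, 0.507 and 0.704 log2 units). Gm20604 and Ubxn8 were likewise listed at 0 in the positive library of experiment 1.

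**Figure D3:**
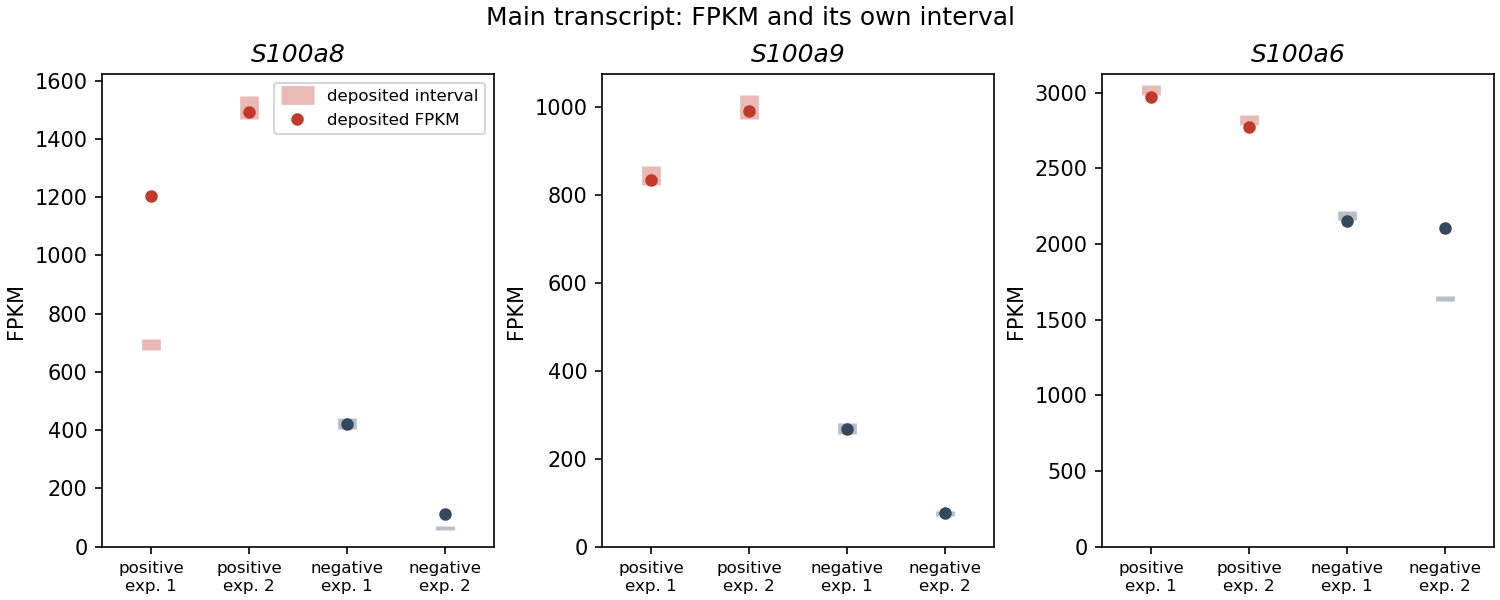
FPKM (points) of the main annotated transcript of S100a8, S100a9 and S100a6 in each library, with the authors' confidence interval for the same transcript (bands, counting error alone); positive libraries stand left of negative libraries. The S100a8 points stand clear of their bands in the positive library of experiment 1 and the negative library of experiment 2, and the S100a6 point does so in the negative library of experiment 2.

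The order of the levels differed between the groups: S100a8 and S100a9 stood higher in positive libraries. S100a10 stood below S100a14 and S100a16 there. In the negative libraries S100a10 was above S100a16 in each library and above S100a14 by mean only. In the negative library of experiment 2 S100a10 was below S100a14 (639 against 675 FPKM). In the positive libraries the order by mean was S100a6, S100a8, S100a11, S100a9, S100a14, S100a16, S100a10, S100a4, S100a13 and S100a3. Neighbours whose libraries overlapped there were S100a8 with S100a11 and S100a9 with S100a14. In the negative libraries the order was S100a6, S100a11, S100a10, S100a14, S100a16, S100a8, S100a4, S100a9, S100a13 and S100a3. The ranges of S100a10 with S100a14, of S100a16 with S100a8, of S100a8 with S100a4 and of S100a4 with S100a9 overlapped there. Among all tested genes S100a8 ranked 86th and 47th in positive libraries, against 288th and 976th in negative libraries. Summed over the 10 genes, the level was 9140 and 9214 FPKM in positive libraries, against 7881 and 5142 FPKM in negative libraries, which was 1.37% and 1.49% of the FPKM assigned to named genes, against 1.16% and 0.849%.

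Of the 9 other genes on the S100 list, 3 were tested and 1 rose, against 2.55% of all genes tested. S100a7a, the mouse counterpart of psoriasin and a neighbour of S100a8, had 3.52 and 4.63 FPKM in positive libraries, against 0.334 and 0 FPKM in negative libraries (difference 2.13 ± 0.25, adjusted p of 0.0252 by limma). In the negative library of experiment 2, where it was listed at 0, the file placed it in 1 locus with S100a6. S100a1 had 10.6 and 11.1 FPKM in positive libraries, against 15.2 and 13.7 FPKM in negative libraries (adjusted p of 0.218). S100pbp, which encodes an S100-binding protein, had 1.13 and 1.68 FPKM in positive libraries, against 1.99 and 3.86 FPKM in negative libraries (adjusted p of 0.253). S100a5, S100g and S100z were listed at 0 throughout, S100b reached 1 FPKM in a single library, and S100a2 and S100a7l2 were not analysed here. Of 7 genes for fused-type S100 proteins, large cornification proteins with an S100 domain, 3 were tested and 0 passed by limma. The closest was Crnn (cornulin), with 1.54 and 1.85 FPKM in positive libraries, against 0.458 and 0.348 FPKM in negative libraries (adjusted p of 0.0705).

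Among 8 receptor and surface partner genes, 5 were tested and 0 passed by limma. Ager, the gene for the receptor RAGE, had 0.423 and 0.117 FPKM in positive libraries, against 0.0935 and 0.496 FPKM in negative libraries. Tlr4, another receptor for S100A8 and S100A9 proteins, had 0.534 and 0.564 FPKM in positive libraries, against 0.17 and 0.309 FPKM in negative libraries. Both were under the 1 FPKM filter in every library. Sdc1 (syndecan 1) had 659.9 and 799 FPKM in positive libraries, against 416 and 461 FPKM in negative libraries, with an adjusted p of 0.0919 by limma and 0.0285 with the experiment block. Fgfr1, the gene for a receptor of fibroblast growth factors, had 0.927 and 2.23 FPKM in positive libraries, against 3.51 and 6.99 FPKM in negative libraries (adjusted p of 0.141, and 0.0299 with the block).

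Of 18 annexins and other intracellular partners, 16 were tested and 1 rose, against 2.55% of all genes tested. Anxa1 (annexin A1, the partner of S100a11) had 2149 and 2463 FPKM in positive libraries, against 764 and 713 FPKM in negative libraries. It rose by 1.64 ± 0.19 (adjusted p of 0.0239 by limma), while S100a11 itself had groups that overlapped. Anxa2, the partner of S100a10, had 1231 and 1235 FPKM in positive libraries, against 1478 and 1413 FPKM in negative libraries (difference -0.23 ± 0.18, adjusted p of 0.470, chosen for naming after its values were seen). Anxa6 had 2.08 and 2.62 FPKM in positive libraries, against 6.15 and 8.41 FPKM in negative libraries (adjusted p of 0.0510 by limma, 0.0276 with the block). Anxa5 and Nucb1, a nucleobindin gene, had adjusted p of 0.0864 and 0.109 by limma and were lower in both positive libraries. Of the 16 tested, 8 were lower in both positive libraries and 3 higher in both, against 42.6% and 15.3% of all genes tested.

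Genes for other calcium-binding and calcium-handling proteins moved in both directions: of 15 tested, 1 rose and 1 fell. The shares over all genes tested were 2.55% and 2.52%. Calm4, a calmodulin-like gene of stratified epithelium, had 885 and 1002 FPKM in positive libraries, against 501 and 428 FPKM in negative libraries (difference 1.02 ± 0.18, adjusted p of 0.0499 by limma). Calm2, a calmodulin gene, had 131 and 127 FPKM in positive libraries, against 251 and 249 FPKM in negative libraries (difference -0.95 ± 0.13, adjusted p of 0.0333 by limma). Calml3, another calmodulin-like gene, had 88.6 and 70.9 FPKM in positive libraries, against 31.4 and 16.9 FPKM in negative libraries (adjusted p of 0.0539 by limma, 0.0156 with the block).

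The members fall into 2 groups along chromosome 3, at either end of the epidermal differentiation complex. On the S100a8 side lay 8 members, from S100a13, at -154.6 kb from S100a8, to S100a9, at 23.6 kb. S100a11 and S100a10 lay 2851.4 and 2886.0 kb away. Of the 8 other tested genes between -400 and 100 kb from S100a8, 2 rose (S100a7a and Pglyrp4, which encodes a peptidoglycan recognition protein) and 1 fell (Slc27a3, a fatty acid transporter gene named here after its values were seen). Of the 21 tested genes in the stretch between, 6 rose and 4 fell. Over all genes tested, 2.55% rose and 2.52% fell. The 4 that fell in the stretch were Sprr2a1, Sprr2a2, Sprr2a3 and Sprr2g, named after their values were seen except Sprr2a1.

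On the list of 22 neighbours in or beside the complex, 14 were tested, 6 rose and 1 fell by limma (8 and 1 with the block). Over all genes tested, 2.55% rose and 2.52% fell (4.09% and 6.36% with the block). The median difference was 2.11 over the list and -0.18 over all genes tested. It was lower without the choice of list genes: 0.618 over all 21 tested genes in the stretch between. Over the 8 other tested genes on the S100a8 side it was -0.30. The list genes that rose by limma were Ivl, Sprr1a, Sprr1b, Lce3c, Lce3d and Pglyrp4, most of them genes of cornified envelope proteins. Ivl (involucrin) had 61.7 and 75.1 FPKM in positive libraries, against 14.4 and 8.67 FPKM in negative libraries (difference 2.50 ± 0.27, adjusted p of 0.0194). Sprr1b, a small proline-rich protein gene, had 4235 and 3626 FPKM in positive libraries, against 603 and 287 FPKM in negative libraries (difference 3.23 ± 0.39, adjusted p of 0.0263). Lce3d, a late cornified envelope gene, had 70.2 and 92.2 FPKM in positive libraries, against 0 and 1.78 FPKM in negative libraries (adjusted p of 0.0166). Sprr2a1 fell, with 61.5 and 63.8 FPKM in positive libraries, against 164 and 132 FPKM in negative libraries (adjusted p of 0.0307). Sprr2d and Sprr2h, named after their values were seen, were higher in both positive libraries: Sprr2d had 266 and 245 FPKM in positive libraries, against 0 and 16.2 FPKM in negative libraries, and Sprr2h had 512 and 447 FPKM, against 0 and 33.0 FPKM in negative libraries. Their adjusted p was 0.0773 and 0.0988 by limma, and 0.0370 and 0.0498 with the block. Sprr2 genes are near-identical copies, and how reads were divided among them is uncertain.

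**Figure D4:**
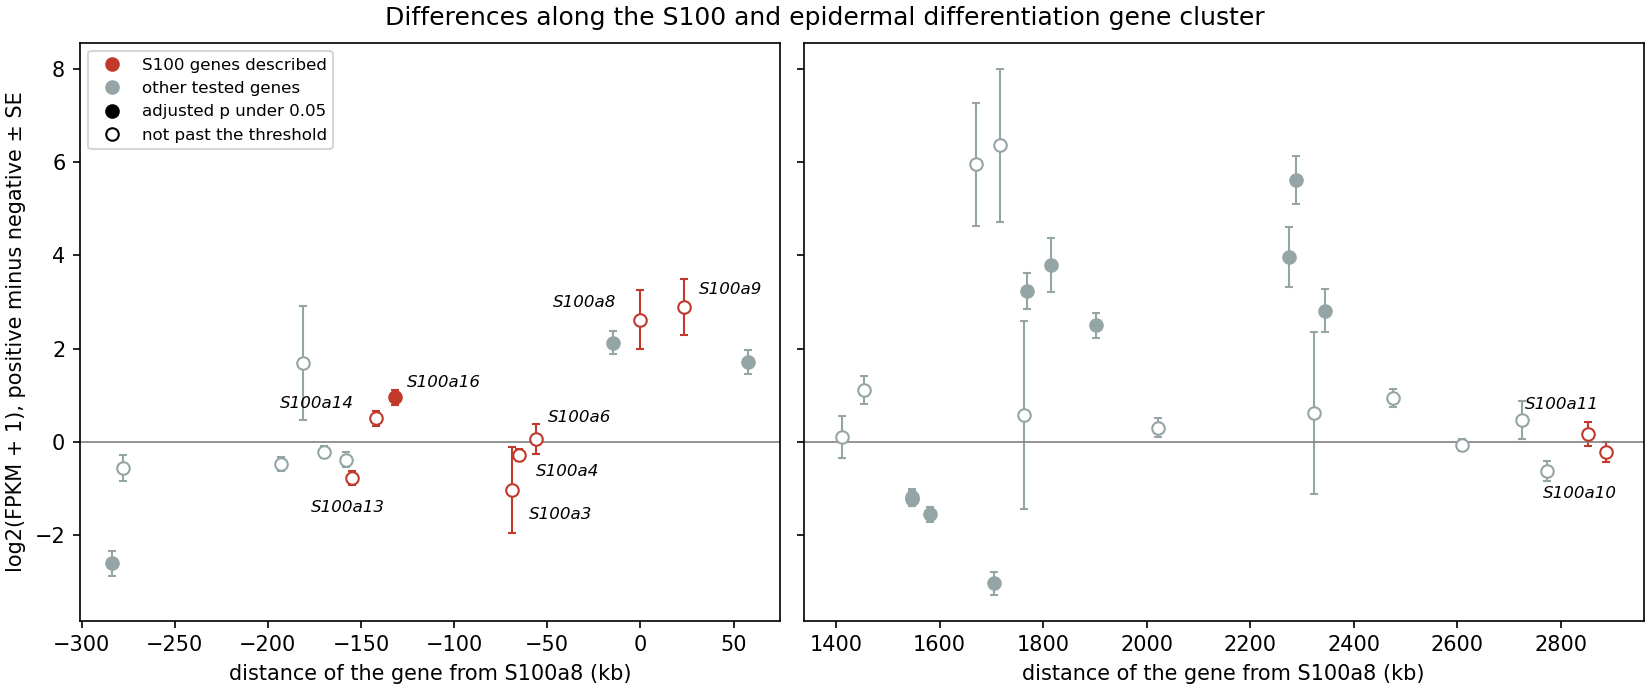
The log2(FPKM + 1) difference, reporter positive minus reporter negative with its standard error, of each tested gene along the S100 and epidermal differentiation clusters, by distance from S100a8 in kb in mm9. Filled points passed an adjusted p of 0.05. S100a16 is filled, S100a8 and S100a9 are open, and in the stretch between 6 genes rose and 4 fell.

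The label of the sorted cells was read against keratinocyte genes. Of 16 such markers 10 had values here, all 10 were tested and 0 passed by limma, and the others were not analysed here. Their summed level was 7037 and 7587 FPKM in positive libraries, against 4798 and 5030 FPKM in negative libraries. Perp and Sfn carried most of that sum. Perp had 2720 and 2702 FPKM in positive libraries, against 1543 and 1401 FPKM in negative libraries. Sfn had 2883 and 2946 FPKM, against 1648 and 1521 FPKM. The median difference was 0.008 over the 10 markers and -0.18 over all genes tested. Of the 10, 3 were higher in both positive libraries and 3 lower in both, against 15.3% and 42.6% of all genes tested. Itga6, the integrin α6 of the sort, had 181 and 205 FPKM in positive libraries, against 331 and 410.4 FPKM in negative libraries (adjusted p of 0.0565 by limma, 0.0190 with the block). Cd44, the other sort marker, had 88.0 and 81.3 FPKM in positive libraries, against 81.5 and 112 FPKM in negative libraries (adjusted p of 0.617). Sfn (stratifin) and Perp, epithelial genes, were higher in both positive libraries, with adjusted p of 0.0807 and 0.0788, and 0.0230 and 0.0225 with the block, and Epcam was lower in both (0.0567, and 0.0433 with the block). On the list for T, NK and Langerhans cells, Cd74 and H2-Ab1, genes of antigen presentation, summed to 14.2 and 28.4 FPKM in positive libraries, against 40.8 and 63.8 FPKM in negative libraries. The other 6 genes of that list were under 1 FPKM in every library. Endothelial markers summed to 3.16 and 3.44 FPKM in positive libraries, against 4.83 and 13 FPKM in negative libraries. Klrb1c was listed at 0 in every library, and 0 of the 3 genes tested from these lists passed by limma. With the block Cd74 and H2-Ab1 fell (adjusted p of 0.0182 and 0.0318). The part of these markers in the S100 values was not tested.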

How the data were processed

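Messenger RNA from sorted tumour cells was sequenced in 4 libraries, 2 reporter positive and 2 reporter negative, grouped by their titles. Per the submitters' processing notes, reads were aligned by the authors with TopHat, and transcripts estimated with Cufflinks, on mm9 (tool versions: not given in the sources used here). In the deposited tables, FPKM stand beside other values per the file headers and fields: coverage, interval bounds and read support. Coverage per FPKM implies 3.54 and 3.28 aligned gigabases in positive libraries, against 3.12 and 3.74 in negative libraries.

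FPKM of transcripts of at least 200 exonic bases was summed per gene (Python 3.11.15, pandas 2.3.3). Shorter transcripts held 95.1% to 98.9% of the deposited FPKM and were left out. Among reference transcripts, 84047 were named by GENCODE M21, 5138 by the gene identifier in the files and 6468 by at least 50% exon overlap; 1081 were not placed. S100a13 rests on a file identifier and S100a14 on exon overlap.

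The 11969 genes that reached 1 FPKM in 2 or more libraries were tested two-sided on log2(FPKM + 1) with limma 3.58.1 (eBayes with trend, R 4.3.3) and Benjamini-Hochberg adjustment. The scale understates changes of low genes. With 2 libraries a side the smallest p of an exact permutation test is 0.333, and no such test was run. The code was tested on simulated data. The titles number an experiment shared by both fractions, so the experiment is a pairing from the labels; deviations from group means of libraries with the same number correlated at 0.174 over 11969 genes.

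The members and gene lists were chosen with earlier results of these data known. Every member was named, with up to 4 genes of each other list by smallest p and the genes of the sort; 1 gene so chosen is not reported here. Alternatives were another pseudocount, filters, scalings, transcript choices, the experiment block, robust variance and leaving out each library. Interval centres, and the block without genes listed at 0, were added after seeing the data.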

Additional observations from a re-analysis of the deposited data

How the results depend on the processing

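The count of 607 called genes (305 higher, 302 lower) depended on the settings. It was 4 with no filter on low values, 95 with reference transcripts only, 312 with the most abundant transcript per gene, 973 with robust variance (413 higher, 560 lower) and 1209 with genes listed at 0 left out (466 higher, 743 lower). Median-of-ratios scaling gave 419 higher and 195 lower, and quantile normalization 407 higher and 252 lower. Leaving out 1 library gave 3 to 179 calls, the fewest without the negative library of experiment 2.

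The experiment as a replicate block called 1250 genes (489 higher, 761 lower) and 3 of the S100 genes. With genes listed at 0 also left out it called 3144 (918 higher, 2226 lower) and 5 S100 genes.

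The 1 called S100 gene, S100a16, became 0 with a pseudocount of 0.1 (adjusted p of 0.0522), no filter (0.121), median-of-ratios scaling (0.0541), reference transcripts only (0.0990), the most abundant transcript (0.0695), short transcripts kept (0.0537) and interval centres (0.0536). The adjusted p of S100a16 over 17 alternatives was 0.000154 to 0.315. It was under the threshold in 6 of the 17, so the settings named above are not all those that lost the call. Without 1 library the S100a16 difference was 0.88 to 1.03. With genes listed at 0 left out, 4 of 9 S100 genes were called, against 1209 of 11496 genes. With robust variance 2 of 10 were called, against 973 of 11969 genes.

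Among single genes, S100a10 turned to 0.0013 with median-of-ratios scaling and S100a6 to -0.0875 with quantile normalization. Leaving out 1 library gave -2.46 to 0.39 for S100a3 (highest without the positive library of experiment 1), -0.33 to 0.45 for S100a6 and -0.12 to 0.45 for S100a11 (both lowest without the negative library of experiment 2). The cause was not tested. S100a8, S100a9, S100a14 and S100a16 stayed higher and S100a4 and S100a13 lower in all 17 alternatives.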
